A study of Homo sapiens with 3 samples.

Results

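A divergent promoter is a stretch of DNA from which 2 protein-coding genes are transcribed away from each other. The peaks described here are the wide ZBTB11 peaks that lie at such promoters. They were selected on their width in the deposited peak list, which had to be at least 500 bp, and on the annotation. The peak interval, extended by 500 bp on each side, had to hold transcription start sites (TSSs) of 2 or more GENCODE protein-coding genes on opposite strands. The rule was met by 1327 peaks, here called divergent peaks, of the 346803 ZBTB11 peaks on chromosomes 1 to 22 and X and of the 348392 in the whole list. They made up 2.59% of the 51238 wide peaks and 12.4% (Wilson 95% interval 11.8% to 13.01%) of the 10729 wide peaks with any protein-coding TSS in the extended interval. The number of reads in each library is not given in the peak lists. Because the rule takes any transcript of a gene, and because a wider interval can hold more TSSs, neither the presence of TSSs on both strands nor the width is a finding.

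The study asked whether ZBTB11, a zinc finger protein that binds the oncoprotein SET, acts as a transcription factor, and mapped it by chromatin immunoprecipitation followed by sequencing (ChIP-seq). All 3 libraries were made from untreated NCI-H1299 cells, an established human lung cancer line that the study describes as p53-null. The cells were grown in DMEM with serum and fixed with formaldehyde. One library was precipitated with a ZBTB11 antibody, one with normal IgG as negative control, and one is an Input library that was not analysed here. With 1 library per antibody there is no replicate check, so every comparison describes these libraries, and every interval covers counting error only. Peak lists carry no expression, and the cell type could not be checked against markers.

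In compact vertebrate genomes many housekeeping genes are arranged head to head, with a short GC-rich promoter between them that often lacks a TATA box. Such promoters are known for genes of mitochondria, DNA repair and RNA processing, and ETS family factors such as GABP are well known binders there. The consensus given by the study for ZBTB11 has the core of an ETS site. It can be spelled out as CCGGAAG, called the C form here, and CAGGAAG, called the A form, each read on either strand.

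The DNA between the TSSs of some divergent pairs is shown first, since summit placement and sequence are read from it. Each run goes 5′ to 3′ along the plus strand of hg38 from the base after the TSS of the minus-strand gene, named first, to the base before the TSS of the plus-strand gene. The TSSs are those of the Ensembl canonical transcripts, and the stretches hold no annotated untranslated or coding sequence. Capitals mark matches to the C form or the A form, and a match on the minus strand appears as its reverse complement. In all, 100 divergent pairs have such a stretch of 30 to 300 bases, and 26 of them hold a match. The first set comes from the strongest peaks, the gene lists and the textbook pairs described further on, ordered from strong to weak, with a second histone pair left out. ADAT2 is a subunit of the tRNA adenosine deaminase and PEX3 a peroxisome assembly factor. VPS52 is a vesicle tethering subunit, RPS18 a cytosolic ribosomal protein, COX15 an enzyme of heme A synthesis and CUTC a copper homeostasis protein. SURF1 assembles cytochrome c oxidase, H2BC12 and H2AC12 are core histones, SARS2 is the mitochondrial seryl-tRNA synthetase and MRPS12 a mitochondrial ribosomal protein.

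ADAT2/PEX3, chr6:143450696-143450804: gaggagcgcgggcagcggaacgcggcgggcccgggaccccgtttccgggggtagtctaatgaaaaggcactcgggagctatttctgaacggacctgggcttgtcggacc
VPS52/RPS18, chr6:33271877-33272074: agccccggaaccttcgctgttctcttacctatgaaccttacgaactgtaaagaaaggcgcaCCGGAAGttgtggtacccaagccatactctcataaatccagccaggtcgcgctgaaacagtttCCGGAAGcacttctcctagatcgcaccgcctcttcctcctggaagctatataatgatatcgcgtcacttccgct
COX15/CUTC, chr10:99732128-99732233: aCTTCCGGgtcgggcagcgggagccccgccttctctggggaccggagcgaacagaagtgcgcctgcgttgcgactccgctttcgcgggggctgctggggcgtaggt
SURF1/SURF2, chr9:133356488-133356549: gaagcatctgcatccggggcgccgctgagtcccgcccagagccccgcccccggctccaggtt
H2BC12/H2AC12, chr6:27146856-27147105: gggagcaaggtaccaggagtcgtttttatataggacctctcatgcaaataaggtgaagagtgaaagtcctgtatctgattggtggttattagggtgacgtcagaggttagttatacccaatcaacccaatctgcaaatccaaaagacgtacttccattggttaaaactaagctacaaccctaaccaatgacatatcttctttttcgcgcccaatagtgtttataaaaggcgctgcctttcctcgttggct
SARS2/MRPS12, chr19:38930764-38930943: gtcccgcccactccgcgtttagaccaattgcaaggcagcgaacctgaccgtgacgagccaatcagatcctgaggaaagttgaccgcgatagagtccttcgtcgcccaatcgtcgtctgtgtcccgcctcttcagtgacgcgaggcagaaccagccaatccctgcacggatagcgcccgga

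A second set was chosen after the values were seen, to show how matches lie in short intervals. METTL6 is a tRNA methyltransferase and EAF1 a partner of the elongation factor ELL. GBA2 cleaves glucosylceramide outside lysosomes, RGP1 takes part in Rab6 activation, RNF113A is a ubiquitin ligase of the spliceosome and NDUFA1 a subunit of respiratory complex I.

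METTL6/EAF1, chr3:15427545-15427597: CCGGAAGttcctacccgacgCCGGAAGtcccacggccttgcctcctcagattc
GBA2/RGP1, chr9:35749229-35749286: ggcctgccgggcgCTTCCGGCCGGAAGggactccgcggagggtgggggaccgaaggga
RNF113A/NDUFA1, chrX:119871734-119871831: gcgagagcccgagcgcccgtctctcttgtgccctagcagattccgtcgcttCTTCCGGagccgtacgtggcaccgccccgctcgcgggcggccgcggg

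At ADAT2/PEX3 the summit stood 39 bp from the ADAT2 TSS, inside a 109-base stretch with 66.1% GC that holds no match. That peak ranked 60 in the whole list by p-value. Its fold enrichment, the pileup at the summit over the local background, was 18.7, which together with the p-value gives 487 fragments at the summit. VPS52/RPS18 (rank 170, 485 fragments, fold 16.8) has C forms at bases 62 and 125 of its stretch, and its summit at base 7 is more than 50 bp from both. METTL6/EAF1 (rank 460, 293 fragments) has C forms at bases 1 and 21, and its summit lay 15 bp inside METTL6. In GBA2/RGP1 (rank 539, 245 fragments) the matches at bases 14 and 21 adjoin and read in opposite directions, so that the run of capitals is its own reverse complement. RNF113A/NDUFA1 (rank 1697, 82 fragments) has its summit at base 33 and its match at base 52. The weaker peaks end the series. SURF1/SURF2 (rank 2611, 59 fragments, fold 8.99) has no match between the TSSs. Its summit lay 28 bp inside SURF1 and has 1 C form within 50 bp. H2BC12/H2AC12 (rank 4966, 32 fragments, 42.4% GC) also has none between the TSSs. Its summit lay outside them, on the H2BC12 side, with 1 A form within 50 bp. SARS2/MRPS12 (rank 13348, 19 fragments, fold 2.996) has none between the TSSs either, and its summit lay 204 bp beyond the MRPS12 TSS. Sequence shown here thus includes strong peaks with and without the consensus between the TSSs.

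To describe the geometry, each divergent peak was given the pair of canonical TSSs on opposite strands that lie closest together in its extended interval. Such a pair was found for 821 of the 1327 peaks (61.9%, 59.2% to 64.4%). In 779 of them (94.9%) the genes ran head to head, and in the other 42 (5.12%) the TSSs were crossed, so that the transcribed regions overlap. The 821 peaks lay at 812 distinct pairs, 803 with 1 peak and 9 with 2. The remaining 506 peaks met the rule only through an alternative transcript, with a canonical TSS on 1 strand in 487 and on none in 19. Strength differed between these kinds. The median fold was 7.46 (6.95 to 8.25) with a canonical pair and 5.87 (5.32 to 6.39) without one, and a fold of at least 10 was found in 38.0% (34.7% to 41.4%) and 26.5% (22.8% to 30.5%). More than 2 protein-coding genes started in the extended interval at 106 divergent peaks (7.99%).

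The median spacing of canonical head-to-head TSSs over the 779 peaks was 233 bp (order-statistic 95% interval 221 to 246), the quartiles were 118 and 392 bp, and the range was 11 to 2066 bp. The median was 100.5 bp with the closest TSSs of any transcript, 125.5 bp with the most upstream and 513 bp with the outermost ones. The rule bounds it from above, as both TSSs must fall in 1 extended interval. The closest pairs were ENSG00000286192/NUDT1 at 11 bp, where MRM2 starts on the same strand as the unnamed gene, CIR1/SCRN3 at 18 bp, TSGA10/LIPT1 and HIGD2B/BBS4 at 25 bp and PARG/TIMM23B at 26 bp. A further pair, with an unnamed gene, was also 26 bp apart. MRM2 methylates mitochondrial ribosomal RNA and NUDT1 clears oxidized nucleotides, while BBS4 belongs to the BBSome of cilia. The 5 named peaks had folds from 10.5 at CIR1/SCRN3 to 16.6 at TSGA10/LIPT1, and the tied one a fold of 3.02. The widest spacings were 2066 bp at RRAS/SCAF1, 1575 bp at PPP1R13L/POLR1G, 1248 bp at EXTL2/SLC30A7, 1183 bp at BAD/GPR137 and 1172 bp at DYNLT4/BTBD19. Only BAD/GPR137, with a fold of 13.1, exceeded 10 among these 5. RRAS is a small GTPase and BAD a promoter of apoptosis.

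Where the TSSs were crossed, the median overlap was 328 bp (232 to 389) and the highest 1285 bp. The largest overlaps were at ENSG00000285982/RIMS2 (fold 2.78), UTS2B/CCDC50 (fold 4.57), RNF103-CHMP3/RMND5A (fold 9.86), SLC25A22/PANO1 (fold 4.81) and CENPT/NUTF2 (fold 6.90). CENPT is a kinetochore protein and NUTF2 a Ran import factor. None of these 5 reached a fold of 10, against 28.6% (17.2% to 43.6%) of all 42 overlapping pairs.

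Next, the place of the summit between the TSSs was measured. The summit lay between the canonical TSSs in 285 of 779 head-to-head peaks (36.6%, 33.3% to 40.03%). The share depends on the TSSs taken, with 18.0% for the closest TSSs of any transcript, 20.6% for the most upstream and 65.0% for the outermost ones. With canonical TSSs, in the other 494 it lay downstream of one of them, 249 times on the side of the minus-strand gene and 245 times on that of the plus-strand gene. The sides were used almost equally, and the nearer TSS was that of the minus-strand gene at 402 peaks. The peak itself covered both TSSs in 587 cases (75.4%). The median distance from the summit to the nearer TSS was 88 bp, with quartiles of 33 and 192 bp.

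**Figure D1:**
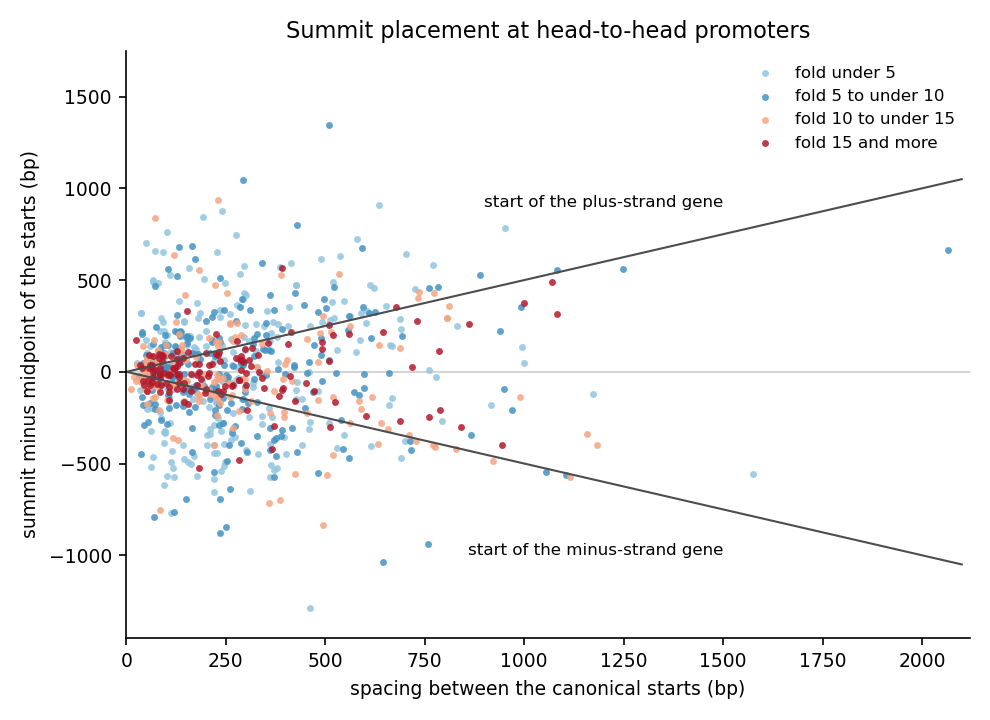
Summit position at the 779 head-to-head peaks. The x axis is the spacing between the canonical TSSs in bp and the y axis the distance of the summit from their midpoint in bp, positive towards the plus-strand gene, with 1 point per peak coloured by fold class and black lines at both TSSs. Points between the lines are the 285 summits between the TSSs, and the peaks with a fold of 15 and more gather close to or inside the lines.

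Placement differed with strength. Among the 239 head-to-head peaks with a fold under 5 the summit lay between the TSSs in 21.8% (17.0% to 27.4%). The share was 34.6% (28.9% to 40.8%) of 240 peaks from 5 to under 10, 37.6% (30.4% to 45.4%) of 157 from 10 to under 15, and 63.6% (55.5% to 71.1%) of the 143 peaks at 15 and more. The weakest and the strongest class do not overlap in their intervals, while the middle classes do. The median distance to the nearer TSS was 157, 98.5, 55 and 52 bp in the same order, and the median distance to the midpoint 274, 182, 142 and 81 bp. Median spacing, in contrast, moved little, from 246 bp in the weakest to 204 bp in the strongest class. The classes differ in the number of fragments at the summit as well, and its part in this order was not tested.

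Placement also differed with spacing, as a longer interval leaves more room. Of all head-to-head peaks, 18.7% (13.4% to 25.6%) had the summit between TSSs less than 100 bp apart and 54.9% (46.4% to 63.1%) between TSSs at least 500 bp apart. Within the strongest class, with a fold of 15 and more, the share was 30.3% (17.4% to 47.3%) of 33 peaks below 100 bp and 56.8% (40.9% to 71.3%) of 37 peaks from 100 to under 200 bp. It was 81.5% (63.3% to 91.8%) of 27 peaks from 200 to under 300 bp, 80.0% (60.9% to 91.1%) of 25 from 300 to under 500 bp, and 85.7% (65.4% to 95.02%) of 21 at 500 bp and more. At spacings from 200 bp, most strong summits thus stood between the TSSs. Their median distance to the nearer TSS in these last bins was 61, 95 and 100 bp. In the class under 5 the shares were 0 of 37, 12.7% of 55, 22.2% of 54, 28.0% of 50 and 44.2% of 43 peaks. The 0 of 37 allows a share of up to 9.41% by its interval.

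**Figure D2:**
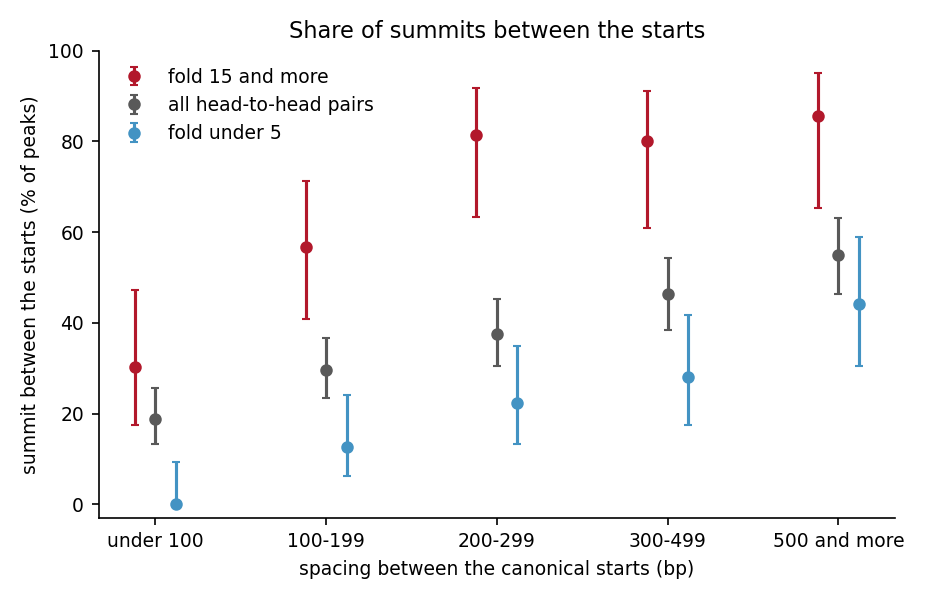
Percent of head-to-head peaks whose summit lies between the canonical TSSs (y axis) by spacing in bp (x axis), for peaks with a fold of 15 and more (red), all head-to-head peaks (grey) and peaks with a fold under 5 (blue). Bars are Wilson 95% intervals, and in every bin the red points, 30.3% to 85.7%, stand above the blue ones, 0% to 44.2%.

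The strongest divergent peaks give examples, in the order of the list. RGS5/NUF2 (rank 1, 482 fragments, fold 22.3) has alternative TSSs 99 bp apart, and its summit lay between them, 24 bp from RGS5 and 75 bp from NUF2, a kinetochore protein. HMGB1/USPL1 (rank 3, 473 fragments, fold 22.6) has alternative TSSs 96 bp apart, and its summit lay 164 bp beyond that of USPL1. HMGB1 is an abundant chromatin protein. At MED23/ENPP3 (rank 5, fold 19.7) the summit lay 32 bp from MED23, a Mediator subunit, in an interval of 200 bp. At TDP2/ACOT13 (rank 9, 485 fragments) it lay 70 bp from TDP2, a DNA end-processing enzyme, and 108 bp from ACOT13, a mitochondrial thioesterase. COPS2/GALK2 (rank 11, 487 fragments) is crossed by 5 bp in its closest TSSs. EXOSC3/DCAF10 (rank 13) had 506 fragments, the most of any divergent peak, and its summit lay 35 bp from EXOSC3, a subunit of the RNA exosome, and 53 bp from DCAF10. At INTS12/GSTCD (rank 26) it lay 41 and 54 bp from the TSSs of a 95-bp interval, INTS12 being a subunit of the Integrator complex. At EXD3/NOXA1 (rank 27) it lay 13 bp from EXD3 and 218 bp from NOXA1. SF3B6/FAM228B (rank 46), with a subunit of the U2 snRNP, GIN1/PPIP5K2 (rank 52), BORCS8/RFXANK (rank 57) and ADAT2/PEX3 (rank 60) had the summit 36 to 69 bp from the minus-strand TSS, inside intervals of 106 to 163 bp. Alternative TSSs were used at 6 of these 12 peaks, which besides the first 3 were COPS2/GALK2, EXOSC3/DCAF10 and SF3B6/FAM228B. Of the 12, the summit stood between the TSSs used in all but HMGB1/USPL1 and COPS2/GALK2.

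Peaks at promoters of 1 strand gave the same readout for a single gene. They were split into 2189 peaks with an opposite TSS of a non-coding gene and 7213 with TSSs of 1 strand only. With the distance signed along the gene, the summit lay upstream of the canonical TSS in 65.3% (58.5% to 71.6%) of the first kind and 60.3% (56.1% to 64.4%) of the second at a fold of 15 and more. For the genes of head-to-head pairs at the same strength this was 81.8% (76.9% to 85.9%), with medians of −50, −27 and −92 bp. A summit between the TSSs counts as upstream for both genes of a pair, and any other summit for 1 of them. The measure itself thus raises the share of head-to-head genes, which cannot be set against the one-strand shares. Its interval counts each summit once per gene. At a fold under 5 the median summit lay 36 and 82 bp downstream of the TSS in the one-strand kinds. The head-to-head median was 146 bp upstream. The signed distances to both TSSs of a pair add up to minus its spacing wherever the summit lies. The head-to-head medians thus depend on the spacing and cannot be set against the one-strand medians. Strong one-strand summits lay at or a little upstream of the TSS, and weak one-strand summits more often downstream.

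Measured to the nearest protein-coding TSS of any transcript, divergent summits were nearer. The median distance was 43 bp (37 to 47) at divergent peaks, 119 bp (111 to 129) at one-strand peaks with an opposite non-coding TSS, and 141 bp (136 to 148) at those without one. At a fold of 15 and more these were 21, 62 and 42 bp, and 93.5% (89.3% to 96.1%), 65.8% and 75.9% lay within 100 bp. Divergent peaks hold more TSSs by the rule, which by itself shortens this distance. Of all divergent summits, 662 (49.9%) fell in an annotated untranslated region, 164 (12.4%) in coding sequence and 501 (37.8%) in neither.

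The strength of the peaks was compared next. Width, which chose the members, and fold come from the same signal, so these values are a description. Fold enrichment of at least 10 was found in 446 of 1327 divergent peaks (33.6%, 31.1% to 36.2%), against 20.6% of all 10729 wide promoter peaks and 0.815% of all ZBTB11 peaks on these chromosomes. It was found in 23.6% (21.9% to 25.4%) of one-strand peaks with an opposite non-coding TSS and in 17.3% (16.4% to 18.2%) of one-strand peaks without one. The median folds were 6.79 (6.38 to 7.17), 5.603 (5.37 to 5.83) and 4.34 (4.25 to 4.42). Divergent peaks were thus the strongest kind, and one-strand peaks with an opposite non-coding TSS stood between. The summit held a median of 28 fragments (26 to 31) over a background of 3.41, against 20 and 13 fragments in the other kinds, and ranged from 3 to 506. A q-value of 0.05 or less was listed for 89.98% (88.2% to 91.5%) of divergent peaks and 74.9% (74.1% to 75.8%) of the other wide promoter peaks. The strongest 1000 peaks of the whole list included 882 wide promoter peaks, of which 210 were divergent (23.8%, 21.1% to 26.7%).

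**Figure D3:**
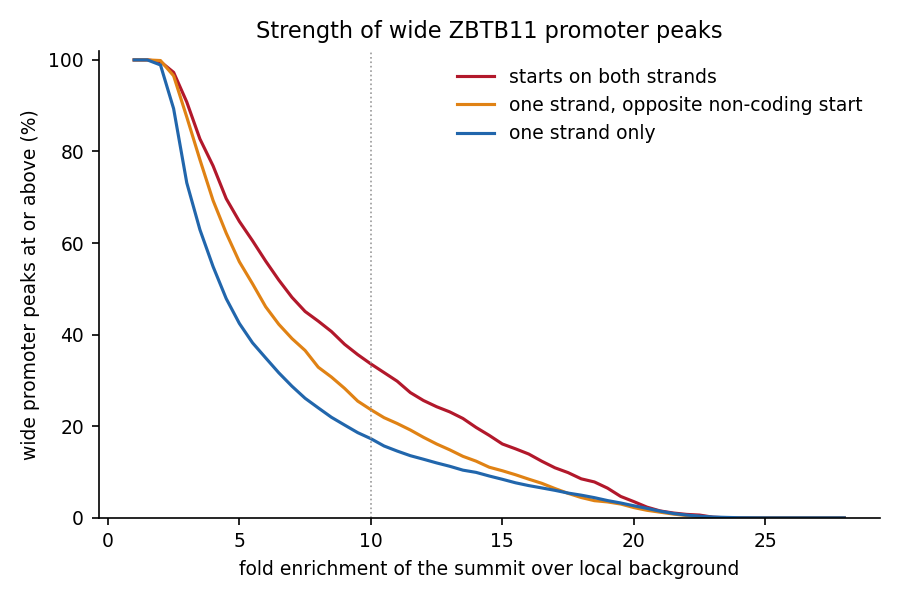
Percent of wide promoter peaks (y axis) with at least the fold enrichment on the x axis, for the 1327 divergent peaks (red), the 2189 one-strand peaks with an opposite non-coding TSS (orange) and the 7213 other one-strand peaks (blue). At the dotted line, a fold of 10, the curves stand at 33.6%, 23.6% and 17.3%, and at a fold of 21 they stand at 1.51%, 1.23% and 1.46%.

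Divergent peaks were also wider, with median widths of 907, 891 and 781 bp. Within the same width the order was less even. At 500 to under 600 bp, a fold of at least 10 was found in 5.61% (2.60% to 11.7%) of 107 divergent peaks, 2.42% (1.11% to 5.18%) of 248 peaks with an opposite non-coding TSS and 1.75% (1.19% to 2.54%) of 1490 others. From 600 to under 700 bp the shares were 13.008% (8.17% to 20.1%), 16.0% (11.9% to 21.2%) and 11.6% (9.92% to 13.6%), with intervals that overlap. From 700 to under 800 bp they were 38.7% (32.1% to 45.7%), 29.2% (24.3% to 34.7%) and 24.6% (22.2% to 27.2%), and from 800 bp 38.6% (35.5% to 41.9%), 27.5% (25.2% to 29.9%) and 23.6% (22.2% to 25.05%). The divergent interval lay clear of that of one-strand peaks without an opposite TSS at every width but 600 to under 700 bp, and clear of both kinds from 800 bp only.

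The share that is divergent grew with strength and then levelled. It was 8.38% (7.68% to 9.14%) of wide promoter peaks with a fold under 5, 14.1% (12.9% to 15.4%) from 5 to under 10, 19.9% (17.7% to 22.3%) from 10 to under 15, and 20.5% (18.1% to 23.01%) at 15 and more. By chromosome it ran from 8.19% (4.94% to 13.3%) of 171 wide promoter peaks on chromosome 18 to 19.4% (15.5% to 23.9%) of 341 on chromosome 14. Chromosome 16 followed with 17.3%, while chromosome 1 had the most divergent peaks, 113.

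The widest divergent peaks were not the strongest. PPP1R13L/POLR1G spanned 2582 bp at a fold of 2.83, TCP1/MRPL18 2388 bp at 6.35, RRAS/SCAF1 2078 bp at 5.58, TXNDC12/BTF3L4 2077 bp at 5.70 and PFN1/ENO3 2030 bp at 8.75. TCP1 is a subunit of the cytosolic chaperonin, MRPL18 a mitochondrial ribosomal protein, PFN1 the actin-binding profilin and ENO3 a glycolytic enolase. Just inside the limit were STK32C/LRRC27 at 500 bp, ARL3/SFXN2 at 501 bp, and RRP12/PGAM1 and RNF41/NABP2 at 508 bp, with folds of 2.23, 2.91, 6.42 and 3.65. Just outside were RPL22/RNF207 and DESI1/XRCC6 at 498 bp, YY1AP1/DAP3 at 497 bp, LRRIQ3/FPGT-TNNI3K at 494 bp and TRMT1/NACC1 at 493 bp, with folds of 4.82, 2.97, 2.83, 2.55 and 7.76. The ranges of fold on either side of the limit overlap.

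To see how many divergent promoters carried a peak at all, the annotation was taken as the starting point. GENCODE holds 984 head-to-head pairs with canonical TSSs within 1000 bp. A wide peak lay within 500 bp of at least 1 of the TSSs in 858 of them (87.2%, 85.0% to 89.1%), and of both in 829 (84.2%). Counted by gene, 85.5% (83.9% to 87.1%) of the 1895 genes of these pairs had a wide peak. The share was 66.8% (65.2% to 68.5%) of 3082 genes with an opposite non-coding TSS and 39.6% (38.9% to 40.4%) of 14881 genes with no opposite TSS. At a fold of at least 10 the shares were 33.0% (31.0% to 35.2%), 17.1% (15.8% to 18.4%) and 8.998% (8.55% to 9.47%). Genes of a pair share a peak and are not independent.

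The sequence at the summit was then searched for the consensus and for 8 other promoter elements, in windows of 50 bp on each side. The C form CCGGAAG was present in 19.7% (17.7% to 21.97%) of divergent summits and 1.43% (1.04% to 1.96%) of windows of that size centred 500 bp away. One-strand summits held it in 14.8% (13.3% to 16.3%) with and 11.4% (10.7% to 12.1%) without an opposite non-coding TSS. For comparison, 10.3% (9.95% to 10.6%) of all 35116 RefSeq promoter windows, which run from 250 bases before to 50 after the TSS and are thus longer, hold it. The A form CAGGAAG was present in 5.43% (4.33% to 6.78%) of divergent summits and 2.86% of their flanks, and in 7.49% and 6.28% of the one-strand summits. Either form was found in 24.6% (22.4% to 27.0%) of divergent summits. The C form at divergent peaks stood above both other kinds, and the A form did not.

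Consensus content followed strength in all 3 kinds. At divergent peaks the C form was found in 6.41% (4.53% to 9.004%) of summits with a fold under 5, 16.0% (12.8% to 19.8%) from 5 to under 10, 33.6% (27.9% to 39.9%) from 10 to under 15 and 41.1% (34.7% to 47.8%) at 15 and more. In the last class the one-strand kinds stood at 35.6% (29.6% to 42.005%) and 39.5% (35.7% to 43.5%). At matched strength the intervals of the 3 kinds overlap in every class but the weakest, where divergent peaks (6.41%) stood above one-strand peaks without an opposite TSS (3.57%, 3.04% to 4.17%). The divergent peaks have more members in the high fold classes, where the content was high in every kind.

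**Figure D4:**
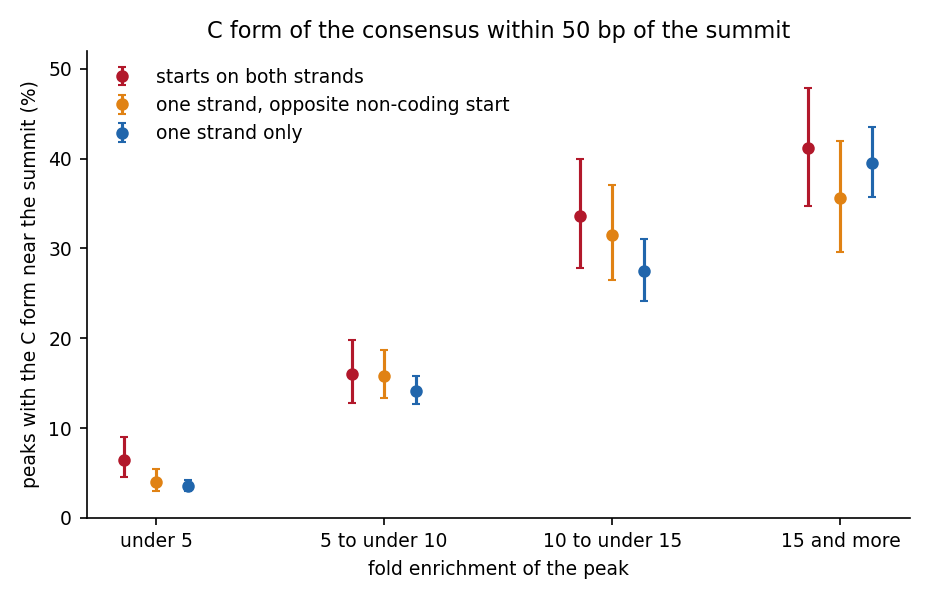
Percent of summit windows with the C form (y axis) by fold class (x axis) in divergent peaks (red), one-strand peaks with an opposite non-coding TSS (orange) and other one-strand peaks (blue), with Wilson 95% intervals. All 3 kinds climb from 3.57% to 6.41% under a fold of 5 to between 35.6% and 41.1% at 15 and more.

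Of the 262 divergent summits with the C form, 226 had 1 match, 32 had 2 and 4 had 3. The centre of the nearest match lay a median of 23.5 bp from the summit, against 24 and 23 bp in the one-strand kinds. The search window of 50 bp on each side bounds this distance, so it does not show whether matches gather at the summit. The 4 summits with 3 matches were SCAND1/CNBD2 (rank 79, fold 19.7), MRPS34/EME2 (rank 274, fold 19.3), KNOP1/IQCK (rank 1254, fold 14.8) and FBXL12/UBL5 (rank 1374, fold 13.9). MRPS34 belongs to the mitochondrial ribosome, EME2 to a DNA repair nuclease, FBXL12 to a ubiquitin ligase, and UBL5 is a ubiquitin-like splicing factor. The summit stood between the closest TSSs at KNOP1/IQCK (44 bp apart), FBXL12/UBL5 (76 bp) and SCAND1/CNBD2 (62 bp), while those of MRPS34/EME2 are crossed by 324 bp. The direction of a single C form showed no preference at head-to-head pairs, where 72 of 138 (52.2%, 43.9% to 60.3%) read along the plus-strand gene. It read along the gene in 49.2% and 53.6% of one-strand peaks.

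Between the TSSs themselves, the C form was found in 166 of 494 head-to-head intervals of 30 to 300 bp (33.6%, 29.6% to 37.9%), and 30 had 2 or more. The share was 55.7% (45.8% to 65.2%) of 97 intervals under peaks with a fold of 15 and more, and 12.4% (7.998% to 18.8%) of 145 under peaks with a fold below 5. Among annotated pairs of the same spacing with no wide peak at either TSS, 6 of 83 (7.23%, 3.36% to 14.9%) held it. Strong peaks thus lay over intervals with the consensus more often than weak ones, and in each of the 3 spacing bins below 300 bp (56.2%, 48.6% and 64.3% of the strong against 5.56%, 16.4% and 12.96% of the weak).

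The other elements were compared in the same way. The GC box GGGCGG was found in 32.6% (30.2% to 35.2%) of divergent summits and 16.7% of their flanks, against 33.9% and 28.9% in the one-strand kinds. The YY1 element AAGATGGC was found in 2.26% (1.59% to 3.21%), above 1.42% (0.999% to 2.003%) and 1.15% (0.929% to 1.42%) in the one-strand kinds, and clear of the second interval only. CCAAT was found in 7.91%, less than in the flanks (10.3%). TATAAA was found in 0.452% (0.207% to 0.983%) against 3.24% of flanks. It stood at 0.914% (0.592% to 1.41%) and 1.75% (1.47% to 2.08%) in the one-strand kinds, so the divergent interval was clear of the second only. The ZNF143 element ACTACAA was at 1.28% (0.801% to 2.04%), against 0.411% (0.216% to 0.780%) and 0.901% (0.708% to 1.15%) in the one-strand kinds. Its divergent interval was clear of the first only. The NRF1 element GCGCATGC was at 0.377%, against 0.603% of flanks and 0.685% and 0.749% in the one-strand kinds. The cAMP response element TGACGTCA was at 0.452%, against 0.188% of flanks and 0.548% and 0.527%. The E box CACGTG was at 1.66%, against 2.22% of flanks and 2.19% and 1.90%. For these elements the divergent interval overlapped all of the others. Each element was searched on both strands. Median GC content around the summit was 66.3% at divergent peaks and 68.3% and 66.3% in the one-strand kinds, and the ratio of observed to expected CpG was 0.872, 0.842 and 0.784.

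The IgG list has peaks on chromosomes 1, 10 and 21 among those analysed. On these, 66 of 161 divergent peaks (41.0%, 33.7% to 48.7%) overlapped an IgG peak by at least 1 bp, against 44.01% (38.8% to 49.4%) and 35.2% (32.4% to 38.1%) of the one-strand kinds. The overlapping IgG peaks were low, with 4 to 12 fragments at the summit and a median of 7. An IgG peak with a q-value of 0.05 or less overlapped 3 of the 161 divergent peaks (1.86%), near the 2.10% and 2.01% of the one-strand kinds. Of wide peaks with no protein-coding TSS, 17.4% overlapped any IgG peak and 5.38% one at that q-value. The 5 strongest with IgG overlap were ITGB3BP/EFCAB7 (rank 99) with 488 ZBTB11 and 9 IgG fragments, LZIC/NMNAT1 (rank 107) with 486 and 8, C10orf88/PSTK (rank 200) with 427 and 7, ZDHHC6/VTI1A (rank 249) with 465 and 9, and NUDT5/CDC123 (rank 420) with 313 and 5. These counts are not scaled to library size, which is not given for either antibody. ITGB3BP is a centromere protein and NMNAT1 a nuclear enzyme of NAD synthesis. Without IgG overlap on these chromosomes, a fold of at least 10 was found in 32.6% (24.0% to 42.6%) of 95 divergent peaks, and in 15.5% (11.02% to 21.4%) of 187 and 14.95% (12.5% to 17.8%) of 709 one-strand peaks.

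The functions of the genes were described by lists written with earlier results of these data known. Of the 19970 protein-coding genes, 2662 had a TSS in the extended interval of a divergent peak, or 13.3%, and 10889, or 54.5%, in that of any wide peak. Lists are read against these shares. Of 45 complex I subunits and assembly factors, 22 started at a divergent peak (48.9%, 35.0% to 63.0%), as did 21 of 43 tRNA modification enzymes (48.8%, 34.6% to 63.2%), 8 of 11 chaperonins (72.7%, 43.4% to 90.3%), and 40 of 100 DNA repair genes (30.9% to 49.8%). Smaller shares, up to 36.2%, started there for spliceosome proteins (25 of 69), cohesin, condensin, kinetochore and anaphase-promoting complex subunits (24 of 67), Mediator (10 of 30), mitochondrial ribosomal proteins (26 of 79), mitochondrial import (10 of 31), aminoacyl-tRNA synthetases (11 of 36), DNA replication (16 of 53), complexes II to V (16 of 55), RNA polymerases with general factors (22 of 77), intraflagellar transport and basal body (21 of 81) and cytosolic ribosomal proteins (21 of 84). The intervals of these 15 lists all lie above 13.3%.

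**Figure D5:**
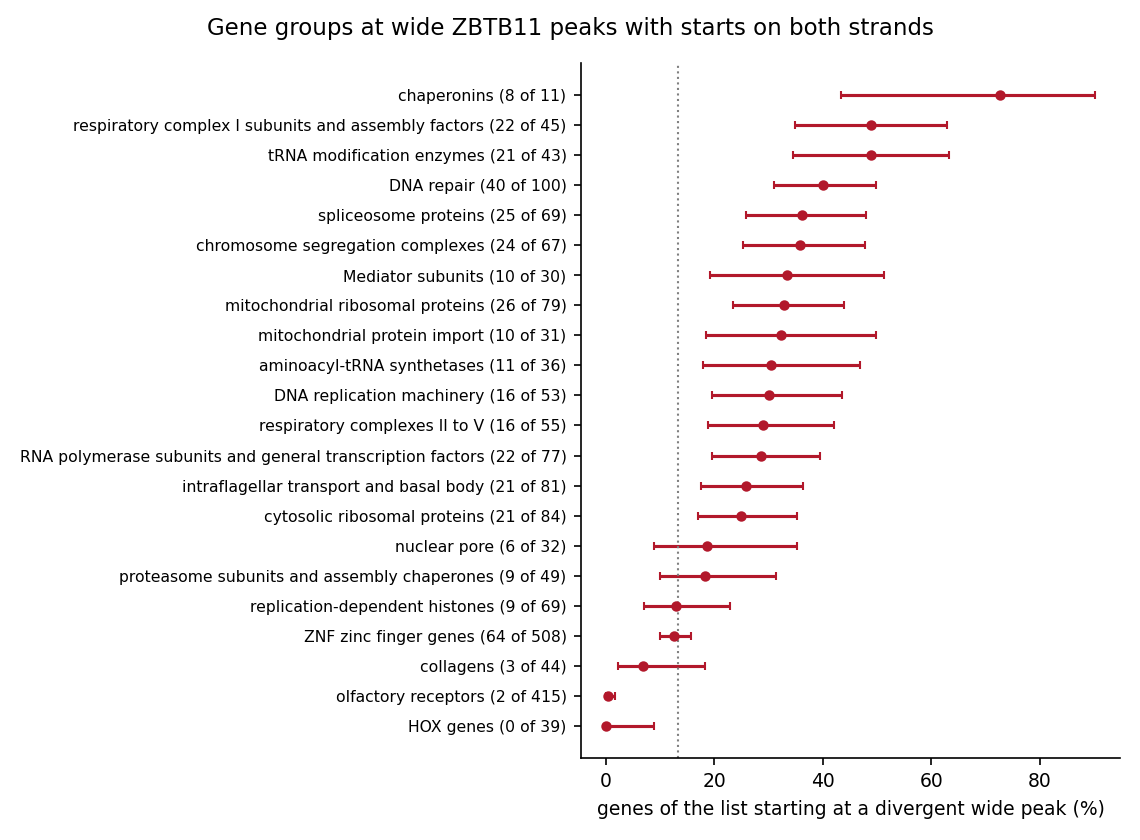
Percent of the genes of each list that start at a divergent wide peak (x axis), with Wilson 95% intervals and the counts beside the list names. The dotted line is the 13.3% of all protein-coding genes, and chaperonins, complex I and tRNA modification enzymes have the highest shares. Chromosome segregation complexes stands for the cohesin, condensin, kinetochore and anaphase-promoting complex list.

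The other lists did not stand above it. Nuclear pore proteins (6 of 32), proteasome subunits with their chaperones (9 of 49), replication-dependent histones (9 of 69) and ZNF zinc finger genes (64 of 508, 12.6%) had intervals that hold 13.3%, as had collagens (3 of 44). HOX genes (0 of 39, which allows up to 8.97%) and olfactory receptors (2 of 415) lay below. Genes of most lists were also at a wide peak of any kind more often than the 54.5% of all genes, with 91.1% of complex I and 92.8% of spliceosome genes. Among genes at any wide peak, the part at divergent peaks was 53.7% for complex I, 55.3% for tRNA modification and 88.9% for chaperonins, against 24.4% for all genes and 22.5% for the proteasome.

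Head-to-head partners in the annotation were counted for the same lists. A partner within 1000 bp was annotated for 9.49% of all protein-coding genes, 37.8% (25.1% to 52.4%) of complex I, 34.9% (22.4% to 49.8%) of tRNA modification, 7 of 11 chaperonins and 31.0% (22.8% to 40.6%) of DNA repair genes. Histones also had a partner for 26 of 69 genes (37.7%, 27.2% to 49.5%), but only 9 of the 69 started at a divergent peak and none of the 26 had a wide peak with a fold of at least 10. Strength was compared between paired and unpaired genes within the lists. A wide peak with a fold of at least 10 was found at 34.04% (31.9% to 36.2%) of all genes with a partner and 11.6% (11.2% to 12.1%) of those without. These shares count a TSS of any transcript in the extended interval, while the 33.0% given above counts canonical TSSs only. For tRNA modification these were 7 of 15 and 16 of 28, for DNA repair 11 of 31 (35.5%) and 22 of 69 (31.9%), for mitochondrial ribosomal proteins 10 of 27 and 17 of 52, and for the spliceosome 9 of 22 and 22 of 47, all with overlapping intervals. DNA replication genes stood at 6 of 15 (19.8% to 64.3%) and 5 of 38 (13.2%, 5.75% to 27.3%), and ZNF genes at 18 of 38 (47.4%, 32.5% to 62.7%) and 26.2% (22.4% to 30.3%) of the other 470. The intervals of the replication genes overlap, and those of the ZNF genes do not.

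Examples are given by role, in the order of peak strength within each list. Some of these peaks met the rule only through an alternative transcript. Among the examples by list, these were the peaks named for NDUFV3, TOMM6, RPL35A, WARS1, PUS10, MED23, MED17, SF3B6 and MCM7. The same holds for those named for FANCM, LIG4, TDG, NUF2, PSMC2, PSME3, HSPD1, B9D1, IFT74 and COL19A1. In complex I the examples were NDUFS3 opposite KBTBD4 (rank 117, fold 19.4), NDUFB3 opposite HYCC2 (rank 189, fold 19.5), NDUFA13 opposite TSSK6 (rank 693) and NDUFV3 opposite WDR4 (rank 916). The canonical TSS of NDUFV3 lies at another ZBTB11 peak, with rank 3399 and a fold of 10.3. In the other respiratory complexes they were ATP5PF, a subunit of the ATP synthase, opposite GABPA (rank 347, fold 16.5), SDHAF2 opposite CPSF7 (rank 902), COX15 opposite CUTC (rank 1059) and ATP5ME opposite MYL5 (rank 1452). GABPA encodes the DNA-binding subunit of the ETS factor GABP, and this 68-bp interval is well known as a head-to-head promoter. At ATP5PF/GABPA the summit lay 52 bp beyond the GABPA TSS with 1 A form and no C form within 50 bp. Mitochondrial import gave TIMM29 opposite YIPF2 (rank 93, fold 19.2), TIMM9 opposite KIAA0586 (rank 244), TOMM6 opposite FRS3 (rank 1543) and TIMM8B opposite SDHD (rank 1635).

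Genes of translation followed. Mitochondrial ribosomal proteins were led by MRPL21 opposite IGHMBP2 (rank 90, fold 19.0), MRPL13 opposite MTBP (rank 95), MRPS18C opposite HELQ (rank 129) and MRPL51 opposite the condensin gene NCAPD2 (rank 157, fold 19.3). At MRPL51/NCAPD2, with 840 bp between the TSSs, the summit stood 120 bp from MRPL51 and 720 bp from NCAPD2. Cytosolic ribosomal proteins were led by RPS18 opposite VPS52 (rank 170), RPS25 opposite TRAPPC4 (rank 578), RPL35A opposite IQCG (rank 1348) and RPL36 opposite MICOS13 (rank 1619). Synthetases were WARS1 opposite WDR25 (rank 230), the pair HARS1/HARS2 (rank 954, fold 17.3) and RARS2 opposite ORC3 (rank 1319). HARS1 and HARS2 charge histidine tRNA in the cytosol and in mitochondria, and their 85-bp interval had the summit 62 bp from HARS1 and 1 C form. tRNA modification gave ADAT2, PUS10 opposite PEX13 (rank 334) and TRMT13 opposite SASS6 (rank 1293), so that ADAT2 and PUS10 each faced a peroxisome gene.

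Genes of transcription, splicing and genome maintenance included ranks 1 and 5. Mediator had MED23 (rank 5), MED29 opposite PAF1 (rank 1372) and MED17 opposite TAF1D (rank 1884). Polymerase and general factor genes were POLR1C opposite YIPF3 (rank 257, fold 20.5), GTF2H3 opposite EIF2B1 (rank 668, fold 20.6), GTF3C4 opposite DDX31 (rank 1136) and GTF2E1 opposite RABL3 (rank 1600). Splicing had SF3B6 (rank 46), SNRPD3 opposite GUCD1 (rank 177), CWC27 opposite SREK1IP1 (rank 377) and EFTUD2 opposite CCDC103 (rank 847). Replication genes were CDC45 opposite UFD1 (rank 1098), MCM7 opposite AP4M1 (rank 1134), MCM4 opposite PRKDC (rank 1202) and ORC3 (rank 1319). The 4 strongest repair genes ranked higher and were EME2 opposite MRPS34 (rank 274), FANCM opposite FKBP3 (rank 423), LIG4 opposite ABHD13 (rank 438) and TDG opposite UQCC6 (rank 472). Segregation genes were NUF2 (rank 1), CENPP opposite NOL8 (rank 153), NCAPD2 (rank 157) and NSL1 opposite TATDN3 (rank 208).

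Protein turnover and transport genes were PSMC2 opposite DNAJC2 (rank 525), PSME3 opposite BECN1 (rank 562), PSMD13 opposite SIRT3 (rank 975) and PSMC5 opposite FTSJ3 (rank 1303). The nuclear pore had NUP37 opposite PARPBP (rank 1987), NUP88 opposite RPAIN (rank 2479), TPR opposite ODR4 (rank 4151) and NUP62 opposite ATF5 (rank 37964). Chaperonins had CCT7 opposite PRADC1 (rank 551, fold 17.3), HSPD1 opposite MOB4 by an alternative TSS (rank 803), CCT5 opposite ATPSCKMT (rank 3618) and TCP1 opposite MRPL18 (rank 4468). Genes of intraflagellar transport and the basal body were CEP95 opposite DDX5 (rank 1429), B9D1 opposite MAPK7 (rank 1747), BBS4 opposite HIGD2B (rank 1925) and IFT74 opposite PLAA (rank 2429). ZNF genes were ZNF408 opposite ARHGAP1 (rank 82, fold 18.1), ZNF490/ZNF791 (rank 264, fold 19.7) and ZNF276 opposite VPS9D1 (rank 277). Histones began at H2BC12/H2AC12 (rank 4966, fold 6.07) and H2BC11/H2AC11 (rank 14419, fold 3.15), collagens at LMBRD1/COL19A1 (rank 11473, fold 4.21), and the only olfactory receptor pair, OR3A2/OR1R1P, ranked 110313 at a fold of 2.55 with 5 fragments.

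Most pairs joined genes of different lists or of none. Of the 812 canonical pairs, 15 had both genes in 1 list. These were 7 ZNF pairs, 4 histone pairs, the synthetases HARS1/HARS2, the chaperonins HSPD1/HSPE1, the mitochondrial ribosomal proteins MRPL46/MRPS11 and the olfactory receptors. The ZNF pairs were ZNF490/ZNF791 (fold 19.7), ZNF668/ZNF646 (16.5), ZNF829/ZNF568 (15.2), ZNF571/ZNF540 (4.23), ZNF565/ZNF146 (3.37), ZNF75D/ZNF449 (4.22) and ZNF891/ZNF10 (3.18). The first 3 had 277 to 413 fragments and the last 4 had 9 to 23, so their strengths fell into separate ranges.

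Head-to-head pairs that are textbook examples were looked up whether or not they had a divergent peak. Of 20 pairs, 13 were at one. PDCD10/SERPINI1 (rank 961, fold 13.95), PRKDC/MCM4 (rank 1202, fold 10.7) and the purine synthesis genes PPAT/PAICS (rank 1672, fold 15.6) were the strongest. SURF1/SURF2 (fold 8.99) had 59 fragments and TRMT2A/RANBP1 (fold 10.2) had 51. At PRKDC/MCM4, with 805 bp between the TSSs, the summit lay 111 bp from MCM4, a helicase subunit, and 694 bp from PRKDC, the DNA-dependent protein kinase. At PPAT/PAICS it lay 105 bp from PAICS in an interval of 645 bp. HSPD1/HSPE1 (23 fragments), NPAT/ATM (23), ORMDL1/PMS1 (18), HADHA/HADHB (14), SARS2/MRPS12 (19) and COL4A6/COL4A5 (5) had folds from 2.55 to 5.61. HSPD1/HSPE1, which encode a mitochondrial chaperonin and its partner, had the summit 6 bp from HSPD1 and 533 bp from HSPE1. Textbook pairs thus ranged from rank 961 to rank 157773.

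The other 7 pairs had no divergent peak. Among them, the strongest peaks at TAP1/PSMB9 (465 bp, fold 3.94) and ZAR1L/BRCA2 (481 bp, fold 4.22) were narrower than 500 bp. COL4A1/COL4A2 and TK1/AFMID had no ZBTB11 peak within 500 bp of a canonical TSS. PKNOX1/NDUFV3 and SLC25A1/CLTCL1 are annotated on the same strand and could not meet the rule.

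Finally, 9 promoters that the study tested by ChIP-qPCR were placed in this scheme. ATPAF1 and PRRG2 were at divergent peaks, and the other 7, from STX16 (rank 59) to COQ3 (rank 282), at one-strand peaks with folds of 17.9 to 21.98. PRRG2, a transmembrane protein with a Gla domain that the study followed as a target, lies head to head with NOSIP, which binds nitric oxide synthases, at chr19:49580285-49581126 (rank 136, 444 fragments, fold 20.8). The canonical TSSs are 760 bp apart, and the summit stood between them, 132 bp from NOSIP and 628 bp from PRRG2. PRRG2 has 5 annotated TSSs in the extended interval, and the summit lay 42 bp downstream of the nearest of them and 130 bp upstream of the nearest of 6 NOSIP TSSs. ATPAF1, an assembly factor of the ATP synthase, shares its peak (rank 378, 307 fragments, fold 23.2, the highest of any divergent peak) with 1 alternative TSS of TEX38, 432 bp from the summit, while the nearest ATPAF1 TSS was 4 bp away. By summit position, the PRRG2 peak thus lay near NOSIP TSSs and an alternative PRRG2 TSS, while the canonical PRRG2 TSS lay outside the peak. The ATPAF1 peak lay near ATPAF1 TSSs, with the TEX38 TSS outside it.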

How the data were processed

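The authors precipitated chromatin of NCI-H1299 cells with ZBTB11 antibody (A303-240A) or IgG, sequenced paired ends, aligned them with BWA to hg38 and called peaks with MACS for each antibody separately at p < 0.05, with the other settings at default. The deposited peak lists give per peak a fold enrichment (a ratio), a −log10 p, a −log10 q and a score, which was not used further. The methods name an older MACS release than the layout of the lists, and another rabbit IgG than the labels. The Input library was not analysed here.

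Transcript starts came from GENCODE 44. Sequences came from the hg38 reference and promoter windows from RefSeq. The number of fragments at a summit and its background were solved from the deposited fold and p-value (pseudocount 1, Poisson model), which gave the listed p within 0.001 for 100% of wide peaks. Shares have Wilson 95% intervals and medians order-statistic intervals. No test was run across peaks or genes, which are not replicates. Alternatives changed width, extension, transcripts, fold, window and IgG overlap. The steps were tested on simulated data, with 100% recovery of 2000 peak classes, 400 spacings, 2000 pileups and 800 motif windows. Python 3.11.15, NumPy 2.4.6 and SciPy 1.17.1 were used.

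The members, gene lists and tests were chosen with earlier results of these data known, and the fold classes (under 5, 5 to 10, 10 to 15, 15 and more) after the values were seen. Named pairs were the 12 with the smallest p, the 5 at each extreme of spacing, overlap and width, the 5 on each side of the width limit, all textbook and ChIP-qPCR promoters, the 4 strongest genes of each list, the 5 with most motif matches and the 5 strongest overlapping IgG. Some pairs that this rule names are not reported here.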

Additional observations from a re-analysis of the deposited data

How the results depend on the processing

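With 1 library per antibody the values carry counting error only, and weak peaks rest on few fragments. Of 35 alternatives to 7 results, 13 left the value within its interval, or the number of divergent peaks within 1.5 times, and 22 did not. Of the 35, 5 were added after seeing the data. The number of divergent peaks was 821 with canonical transcripts only and 1194 to 1433 otherwise. The share of summits between the TSSs was 18.0% with the closest TSSs of any transcript, 65.0% with the outermost ones and, among those added, 20.6% with the most upstream TSS of each strand, 63.6% at a fold of at least 15 and 21.8% under 5. Placement thus depends on which TSSs are taken. Median spacing was 100.5 bp with the closest, 513 bp with the outermost and 125.5 bp with the most upstream TSSs (added), and 220 bp and 251 bp with extensions of 250 and 1000 bp. The share past the fold limit was 64.7% at a limit of 5, 16.1% at 15, 37.4% for q of 0.05 or less and 38.0% for canonical pairs (added). Either consensus form was found in 11.8% within 25 bp, 38.1% within 100 bp and 19.7% for the C form alone. Annotated pairs had a wide peak in 90.7% at a width of 400 bp and 82.1% at 600 bp. IgG overlap was 13.7% where the IgG peak holds the summit and 1.86% at q of 0.05 or less. No paired analysis was possible because the ZBTB11 and IgG groups hold 1 library each.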
